A study of Mus musculus with 2 samples.

Results

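The blood vessel endothelium of the developing mouse eye was described here in 744 cells of 36146. Its cells were chosen by measured values: a cell was taken when a UMI (a counted RNA molecule) was found for at least 3 of the genes Cdh5, Pecam1, Egfl7, Plvap, Ramp2 and Kdr, among them Cdh5 or Pecam1, and when these 6 genes held at least 0.1% of its UMIs. The 36146 cells were those with more than 500 genes and less than 15% mitochondrial UMIs. They came from 2 single-cell libraries of the E17.5 eye cup, 1 for each genotype, and each library pooled the eyes of several embryos. The humWT library held 495 endothelial cells of 17017 and the humdG library 249 of 19129.

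Both genotypes carry a humanized Myrf gene on the C57BL/6J background, in which human sequence stands in place of the last exon of the mouse gene. The Myrf humWT/humWT eyes carry the normal human sequence and are the control. The Myrf humdG/humdG eyes carry a frameshift variant that alters the C-terminal end of the protein. MYRF is a transcription factor of the retinal pigment epithelium, and the variant was found in people with small eyes (nanophthalmos). The change is present in every cell of the embryo and is not limited to endothelium, and homozygous humdG embryos die late in gestation. The labels' protocol speaks of a removed cornea and of Myrf fl/fl and Rx>cre pools, whereas the study's methods describe the humanized eyes with the cornea left in place, so it is uncertain which vessels at the front of the eye were included. The sources also do not settle how many eye cups went into each pool. With 1 library per genotype no difference between genotypes has a replicate check. All intervals of ratios and shares are at 95%, and they describe counting error alone, while those of list medians describe the spread across genes.

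Endothelial cells are held together by adherens and tight junctions, take growth signals from VEGF through the receptors KDR and FLT1, and acquire artery or vein identity partly through Notch signalling. In the eye they form the fenestrated choriocapillaris behind the pigment epithelium, the transient hyaloid vessels inside the globe, and later the retinal vessels with their tight blood-retina barrier. PLVAP forms the diaphragms of fenestrae and caveolae, and vessels lose it as the barrier matures.

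The deposited matrices held 17421 barcodes with 129135207 UMIs for humWT and 19565 barcodes with 114319529 UMIs for humdG. The endothelial cells held 8247451 and 3285729 of these UMIs. Their median depth was 7340 UMIs and 2959 genes in humWT and 5793 UMIs and 2349 genes in humdG, so a gene could be missed more easily in a humdG cell. The median mitochondrial share was 3.83% and 3.12%. The libraries shared 102 barcodes, 93 of them kept in both, and 0 barcodes were endothelial in both. Xist but no Y-linked transcript was found in 23.8% of humWT and 30.1% of humdG endothelial cells, called Xist cells below. A Y-linked transcript but no Xist was found in 37.4% and 26.5%, called Y cells below. Both kinds were found in 16.4% and 16.9%, and neither in 22.4% and 26.5%. Each pool thus held RNA of both sexes, but the sex of single cells is uncertain, as the part of free RNA was not tested. Among all other cells kept, 13.6% in humWT and 29.4% in humdG had Xist but no Y-linked transcript. The reverse was found in 35.7% and 19.3%. These shares differed between the pools, so sex make-up cannot be told apart from genotype in the ratios below.

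One of the rule genes, Egfl7, a secreted angiogenic factor at chr2:26580014-26593120 on the plus strand of GRCm38, is the host of miR-126a, a microRNA best known from endothelium. The hairpin lies at chr2:26591357-26591429. It is spanned by 9 of 19 annotated Egfl7 transcripts, in an intron of 8 and overlapping an exon of 1. The mature strand (22 bases, chr2:26591402-26591423, RefSeq, GRCm38.p6) is shown to identify this locus, with the seed, bases 2 to 8, in capitals. The libraries captured polyadenylated RNA, so miR-126a itself was not measured.
mmu-miR-126a-3p: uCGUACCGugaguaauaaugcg

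ETS factors such as ERG and FLI1 are known to bind the promoters of many endothelial genes. The promoters of the 6 rule genes and of 20 other pan-endothelial genes, from 250 bases before to 50 bases after the start (RefSeq, GRCm38.p6), were therefore searched for the ETS letters CAGGAAG on both strands. The table held 14 of these 26 promoters, and 5 of the 14 had a match. The windows below show them, 29 bases each on the strand of the gene, with the match in capitals. CTTCCTG is the same motif on the opposite strand.
Egfl7 (chr2:26580982-26581010, plus strand): tgggagacaaaCAGGAAGgccatctctct
Egfl7 (chr2:26581023-26581051, plus strand): gctggtctttcCTTCCTGaggtgcagctg
Emcn (chr3:137340893-137340921, plus strand): aagaagggtctCTTCCTGttcaaatccca
Robo4 (chr9:37401911-37401939, plus strand): tgagggccaggCAGGAAGcatccgtttcc
Cd34 (chr1:194938668-194938696, plus strand): gtacacagtggCTTCCTGccacacttaaa
Calcrl (chr2:84425316-84425344, minus strand): gggtgatgtaaCAGGAAGctgtgatgttt

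CAGGAAG was in 20% of 540 promoters of genes at least 4-fold higher in endothelial than in other cells, in 11.7% of 10554 promoters of genes tested and in 13.0% of all 27025 promoters. CCGGAAG, another ETS sequence, was in 5% of the promoters of endothelial genes, 17.9% of those of genes tested and 9.12% of all. The GATA letters AGATAA were in 9.26%, 6.11% and 11.4% of the same promoters. The SOX letters AACAAT were in 8.52%, 5.82% and 10.9%. These were the 4 motifs searched, none contains another, and a match describes the letters alone.

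Since the 6 rule genes chose the cells, their levels are given as a description. VE-cadherin (Cdh5, chr8:104101625-104144511), the adhesion molecule of endothelial junctions, stood at 852 and 928 CPM in humWT and humdG (CPM is the UMIs of a gene summed over cells and scaled to the total UMIs of those cells). PECAM-1 (Pecam1, chr11:106654217-106750628), a second junctional adhesion molecule, stood at 606 and 596 CPM and Egfl7 at 1244 and 1317. Ramp2 (chr11:101246028-101259546), a partner of the adrenomedullin receptor, stood at 781 and 888 CPM. The VEGF receptor gene Kdr (chr5:75932827-75978458) stood at 636 and 777 CPM and Plvap (chr8:71497765-71511752) at 551 and 709. Plvap was the least often seen, in 63.4% of humWT and 67.5% of humdG cells, and Cdh5 had a UMI in 90.3% and 93.6%. Red cells, which should lack both, had median depths of 6161 and 5212 UMIs. In them Cdh5 had a UMI in 4.05% and 2.00% and Plvap in 1.16% and 0.667%. Haemoglobin held a median of 60.3% and 61.0% of a red cell's UMIs, so less depth was left for other genes. Shares and levels of other genes in red cells, here and below, are lowered by this. Kdr, which retinal progenitors also carry, had a UMI in 18.5% and 12% of red cells and stood at 75.8 and 103 CPM in all other cells of the eye.

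**Figure D1:**
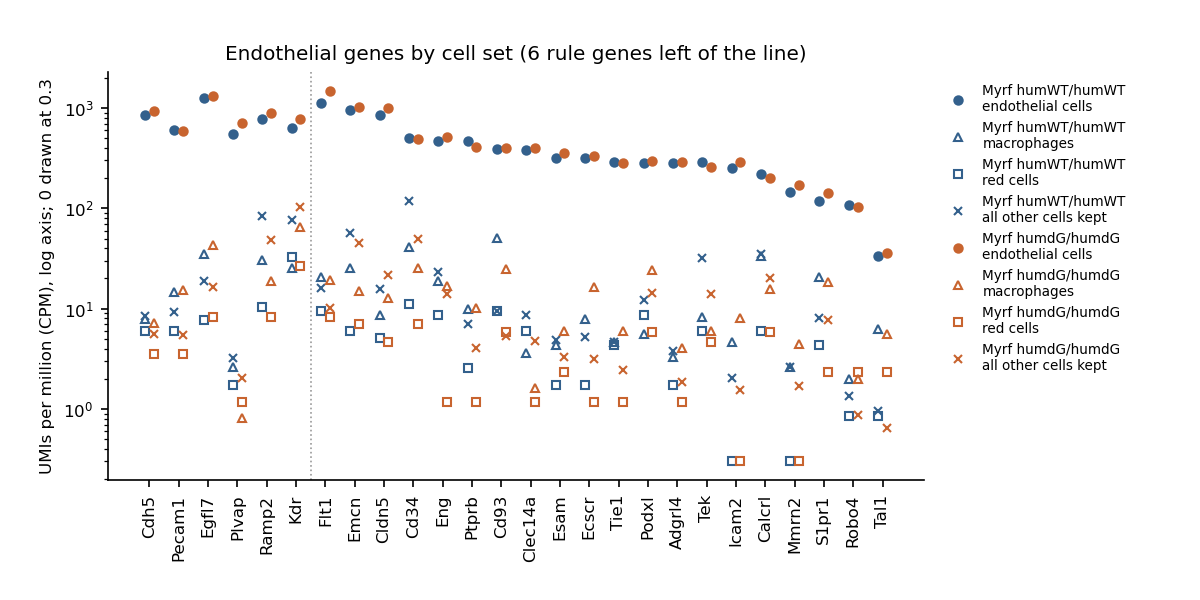
Levels (CPM, log axis, with 0 drawn at 0.3) of the 6 rule genes, left of the dotted line, and 20 pan-endothelial genes in endothelial cells (filled circles), macrophages (triangles), red cells (squares) and all other cells kept (crosses), with humWT in blue and humdG in orange. For all 26 genes the endothelial cells lay above the other 3 sets of the same library.

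The label was checked on genes that the rule did not use. All 20 pan-endothelial genes were at least 4-fold higher in the chosen cells than in all other cells of both libraries, with a median of 49.6-fold in humWT and 79.1-fold in humdG. Among all genes tested, those with 20 UMIs or more in the endothelial cells, 728 of 13648 (5.33%) were so enriched and 233 (1.71%) were at least 4-fold lower. Claudin-5 (Cldn5, chr16:18776847-18778262), the main claudin of endothelial tight junctions, was at 860.1 and 1004 CPM in humWT and humdG, against 15.8 and 21.8 in the other cells. The VEGF receptor gene Flt1 (chr5:147561604-147726011) was at 1126 and 1493 CPM against 16.1 and 10.2. Endomucin (Emcn), a surface sialomucin, was at 961 and 1017 CPM against 57.3 and 45.0. These genes were therefore high in both libraries and low elsewhere. Icam2 and Mmrn2 had no UMI in any red cell. Summed over the 20 genes, the level was 7816 and 8491 CPM in endothelial cells, 368 and 226 in the other cells, 282 and 243 in macrophages, and 94.5 and 65.3 in red cells.

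Single cells varied widely around these levels. The 20 genes held a median of 0.625% of a cell's UMIs in humWT (5th to 95th percentile 0.0400% to 1.25%) and 0.677% in humdG (0.0690% to 1.404%). A median of 14 of the 20 genes was detected per cell in both libraries. At least 3 were detected in 451 of 495 and 232 of 249 cells, compared with 6 of 173 and 1 of 150 red cells. The same was so for 77 of 212 and 26 of 133 macrophages, and for 15.7% and 5.72% of all other cells kept. Detection of 3 of these genes was therefore not limited to the chosen cells. Of the chosen cells, 11 and 9 had none of the 20. Cells that met the rule without any of the 20 were thus few.

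Cells with more rule genes carried more of the independent genes. In humWT the cells with 3, 4, 5 and 6 rule genes detected held 2258, 3892, 7699 and 8320 CPM of the 20 genes. In humdG the same groups held 2533, 4173, 6086 and 9275 CPM. Depth moved with this order, from a median of 3074 to 18027 UMIs in humWT and from 2278 to 14786 in humdG, and haemoglobin moved against it, from 20169 to 2401 CPM and from 8454 to 4291 CPM at the ends. Their part in the order was not tested. All 6 rule genes were detected in 236 humWT and 121 humdG cells, or 47.7% and 48.6%.

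**Figure D2:**
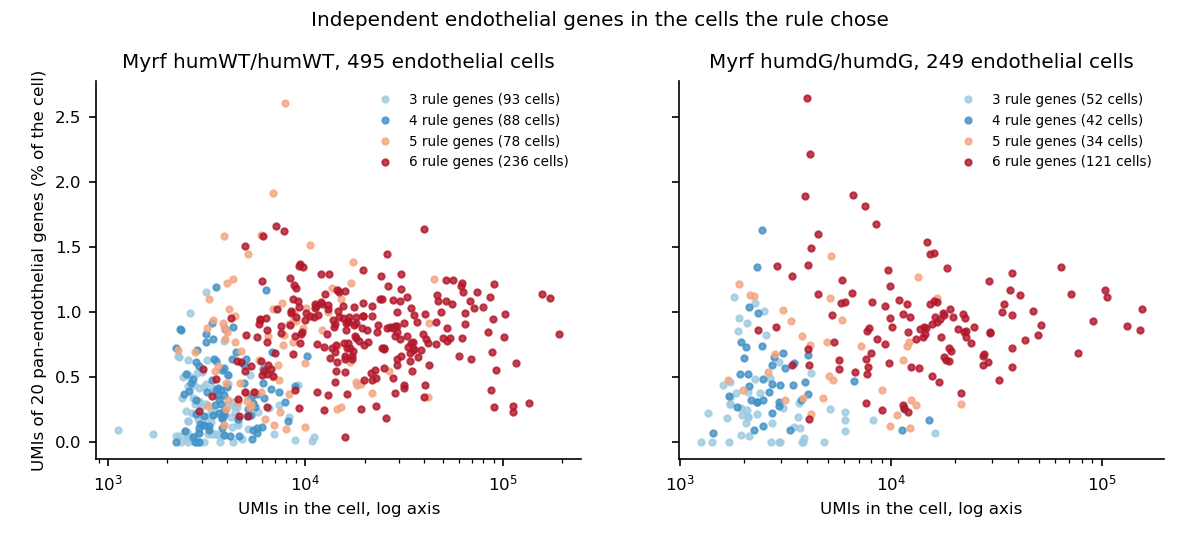
Each point is 1 endothelial cell of humWT (left) or humdG (right), placed by its UMIs (log axis) and by the percentage of its UMIs from the 20 pan-endothelial genes outside the rule, and coloured by the number of rule genes detected. The 236 and 121 cells with 6 rule genes had median depths of 18027 and 14786 UMIs, though some lie at low depth. Many cells with 3 or 4 lie at low depth and low percentage.

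The border of the rule was gradual. Just outside it, 81 humWT and 110 humdG cells with 2 rule genes met its other conditions and held 1006 and 1170 CPM of the 20 genes, against the 2258 and 2533 CPM of the cells with 3. Cells with 0.1% to 0.15% of UMIs from the rule genes, 85 and 23 in number, held 2269 and 1551 CPM, and the 110 and 33 cells with 0.05% to 0.1% held 837 and 858 CPM. A further 29 and 8 cells lacked only a UMI of Cdh5 or Pecam1 and held 1115 and 424 CPM.

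Endothelial cells made up 2.91% of humWT cells (2.66% to 3.17%) and 1.30% of humdG cells (1.146% to 1.47%), a ratio of 0.447, and the intervals did not overlap. Macrophages made up 1.25% (1.08% to 1.42%) and 0.695% (0.582% to 0.823%), and red cells 1.02% (0.871% to 1.18%) and 0.784% (0.664% to 0.9195%). All 3 classes thus had the lower share in humdG, with intervals that overlapped for red cells. The genotype cannot be told apart from the dissection and dissociation of its single pool. With every cell thinned to 1000 UMIs the endothelial shares were 1.24% and 0.650%, a ratio of 0.523. Without cells that had at least 3 markers of another class or 5% haemoglobin, the shares were 2% and 1.94%, a ratio of 0.97. That filter left 9 endothelial cells of 450 cells in humWT and 119 of 6134 in humdG, as 482 of 495 humWT endothelial cells had a UMI of at least 3 of 6 mesenchyme genes, compared with 96 of 249 in humdG.

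Outside the lists, the 12 genes with the highest excess in endothelial cells included Ihh, Fam167b, Gimap1 and Tmem252. Ihh (chr1:74945315-74951672), the Indian hedgehog ligand known to be made by choroidal endothelium, stood at 82.2 and 99.2 CPM in humWT and humdG and at 0.561 and 0.330 CPM in the other cells, an excess of 146 and 297-fold. An Ihh UMI was found in 27.1 and 26.9 percent of endothelial cells and in 0 and 0.667 percent of red cells. Fam167b stood at 291 and 329 CPM against 2.32 and 1.95. Gimap1, of a GTPase family best known from lymphocytes, stood at 148 and 174 CPM against 1.47 and 1.06, and Gimap5, of the same family, at 47.0 and 36.5 against 0.687 and 0.321. Tmem252 stood at 32.9 and 31.7 CPM and Myct1 at 111 and 122. The other 6 were Clec1a, the atypical chemokine receptor gene Ackr2, the receptor gene Gpr182, Dipk2b, AU021092 and Gm32688. Across the 12 the excess ranged from 67.7 to 365-fold over both libraries.

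Most endothelial transcription factor genes were higher in the chosen cells than in the other cells. Of the 17 on that list, 16 were at least 4-fold higher than in the other cells, and their summed level was 3417 CPM in humWT and 3508 in humdG. Klf2, the flow-responsive factor, stood at 527 and 529 CPM and Tcf15, a factor of capillary endothelium, at 455 and 568. The MADS-box factor Mef2c stood at 419.9 and 419.7 CPM, the ETS factors Fli1 and Erg at 387 and 353 and at 124 and 123, and Sox18 at 260.1 and 292. Sox17 (chr1:4490931-4497354) stood at 88.6 and 71.8 CPM, a humdG to humWT ratio of 0.810 (0.697 to 0.940). None of the 17 was past 2-fold between genotypes, and their median log2 ratio was -0.00, compared with -0.72 for the same genes in the other cells.

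Vessel type was read from gates, each a set of marker genes of which at least 2 had to have a UMI. The artery gate (Gja4, Gja5, Hey1, Efnb2, Sema3g, Bmx, Unc5b) held 45.5% of humWT endothelial cells (41.0% to 49.96%) and 38.6% of humdG (32.5% to 44.9%). The vein gate (Nr2f2, Ephb4, Aplnr, Nrp2, Vwf, Ackr1) held 66.7% (62.3% to 70.8%) and 69.1% (62.9% to 74.8%). For both gates the intervals of the genotypes overlapped. Of red cells, 0 of 173 and 1 of 150 met the artery gate and 4 and 1 the vein gate. Both gates together were met by 178 humWT and 81 humdG cells, whose median depths were 19637 and 15934 UMIs, and neither by 118 and 62 cells with median depths of 3283 and 2646 UMIs. Thinned to 1000 UMIs, the artery gate held 9.49% and 10.8% and the vein gate 15.8% and 21.3%, so for the artery gate the order of the genotypes differed from that at full depth.

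Cells in 1 gate alone differed in genes that neither gate used. There were 47 humWT and 15 humdG cells in the artery gate alone and 152 and 91 in the vein gate alone, with median depths of 3983 and 3081 against 7196 and 5229 UMIs. Of 155 further list genes with at least 50 UMIs, 15 were higher and 12 lower in the artery cells by at least 2-fold in both libraries, with 0.5 UMIs added to each count. Among all 7950 genes compared in this way the shares were 3.23% and 3.01%. The humdG artery cells held 70933 UMIs in all, so their single values are imprecise. Of the 27 genes, 16 had a ratio whose interval excluded 1 in both libraries. In humWT alone this was so for 8, of which Ace, Bnip3, Dll4, Jag2, Pdk1 and Sox17 were on the artery side and Birc5 and Dll1 on the vein side. For Ccnb1, Lyl1 and Slc7a5 the interval included 1 in both.

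The Notch pathway had 4 of its 8 genes compared on the artery side, the ligand genes Dll4, Jag1 and Jag2 and the receptor gene Notch4, and 1, the ligand gene Dll1, on the vein side. Jag1 stood at 225 against 24.6 CPM in artery and vein cells of humWT and at 155 against 37.7 in humdG. Dll4 stood at 118 against 39.9 and 84.6 against 41.5 CPM, a humdG ratio of 2.04 (0.698 to 4.93), and Notch4 at 134 against 54.6 and 141 against 41.5. Jag2 stood at 126 against 23.1 and 70.5 against 37.7 CPM, a humdG ratio of 1.87 (0.566 to 4.86). Sox17, a factor of arterial fate, stood at 214 against 26.1 CPM in humWT, a ratio of 8.19 (5.53 to 12.2), and at 70.5 against 31.4 in humdG, where the ratio rested on 5 artery UMIs and was 2.24 (0.670 to 5.96). Dll1 had 0 UMIs in the humdG artery cells, and its humdG ratio was 0 (0 to 2.72).

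Cxcr4, a chemokine receptor gene of arterial and tip cells, had the highest artery to vein ratio of the list genes in humWT, 17.6 (8.36 to 39.7), and in humdG it was 19.2 (6.98 to 57.6). Its levels were 95.4 against 5.41 and 169 against 8.80 CPM. Smad6 (chr9:63953076-64022059), an inhibitor of BMP signalling, had ratios of 5.01 (3.08 to 8.03) and 15.3 (8.53 to 27.8). The BMP target gene Id3 went the other way, with 0.463 (0.369 to 0.575) and 0.315 (0.179 to 0.516). Igfbp3, a binding protein of insulin-like growth factors, stood at 1034 against 388 CPM and 1325 against 526. The VEGF family ligand genes Pgf and Vegfc, the elastic fibre gene Fbln5, the angiotensin-converting enzyme gene Ace, the junction gene Cgnl1, and Bnip3 and Pdk1, which respond to hypoxia, were the other members on the artery side.

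On the vein side were 3 of 11 genes of the fenestrated and caveolar list, Rgcc, Cavin2 and Cd36, along with the rule gene Plvap. Of the same list 1 gene, Igfbp3, was on the artery side, with ratios of 2.66 (2.31 to 3.06) and 2.52 (1.99 to 3.16). As one of the genes that chose the cells, Plvap is given as a description. It stood at 76.3 against 541 CPM in artery and vein cells of humWT, a ratio of 0.141 (0.0858 to 0.219), and at 113 against 670.2 in humdG, a ratio of 0.168 (0.0723 to 0.334). Cd36, a fatty acid receptor gene, stood at 38.2 against 154 and 14.1 against 111 CPM. Rgcc had ratios of 0.299 and 0.149, and the caveolar coat gene Cavin2 of 0.486 and 0.0773. Emcn, known from capillaries and veins, stood at 324 against 959.8 and 395 against 1139 CPM, and Tcf15 at 141 against 428 and 42.3 against 414. The vein cells thus carried more Emcn and Tcf15 in each library. Birc5 and Ccnb1, of the cell cycle, Flrt2, Lyl1 and Slc7a5 were the other list genes there, and all of these but Birc5 had no UMI in the humdG artery cells.

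**Figure D3:**
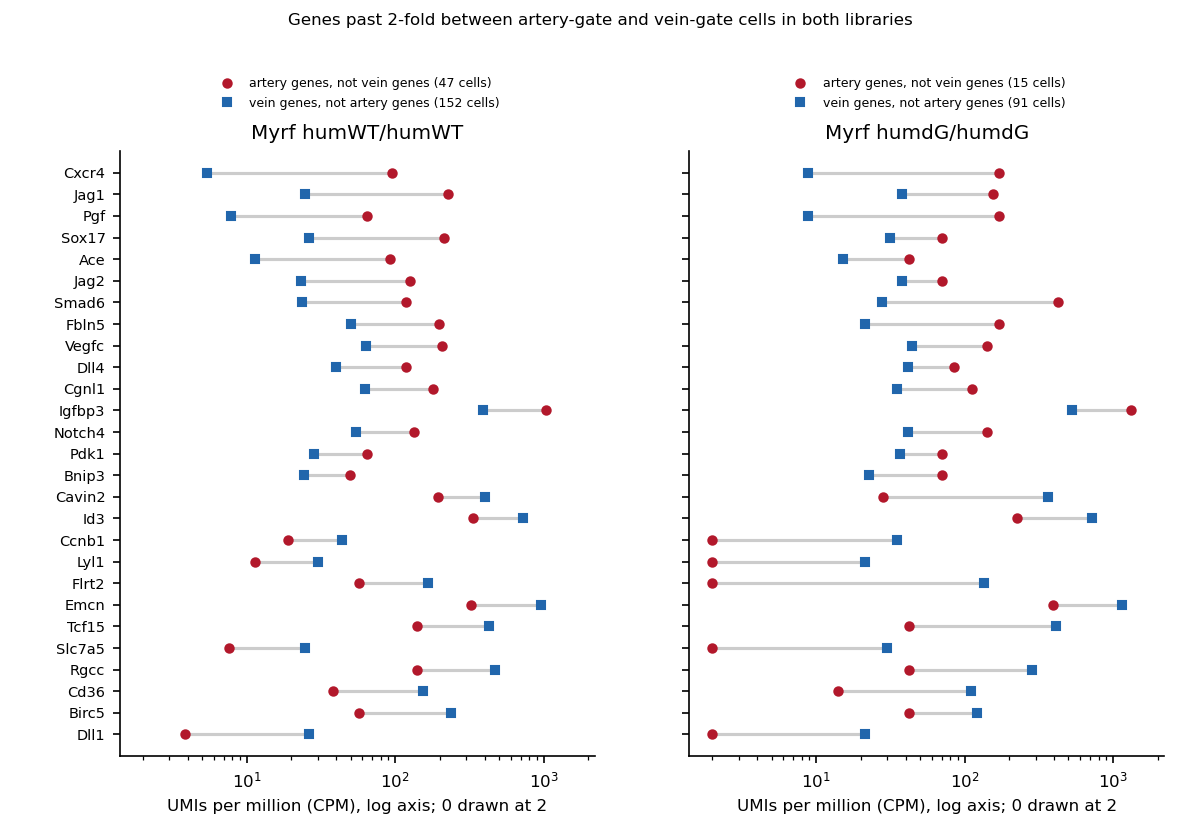
Levels (CPM, log axis, with 0 drawn at 2) in endothelial cells of the artery gate alone (red circles) and of the vein gate alone (blue squares), humWT left and humdG right, for the 27 list genes past 2-fold in the same direction in both libraries. Genes are ordered by their humWT ratio, from Cxcr4 at the top to Dll1 at the bottom.

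Other vessel states were rarer. The tip-cell gate (Apln, Esm1, Angpt2, Pgf) held 57 humWT cells, 11.5% (8.84% to 14.7%), and 14 humdG cells, 5.62% (3.11% to 9.25%), and 1 cell in each library after thinning. Apln, the apelin gene of sprouting cells, stood at 45.8 and 28.3 CPM, a ratio of 0.618 (0.487 to 0.777), and Esm1, which also marks tip cells, at 12.4 and 15.8, a ratio of 1.28 (0.898 to 1.80). Over the 9 tip-cell genes the median log2 ratio was -0.02, with none past 2-fold, but it was -0.72 in Xist cells and 0.29 in Y cells. The lymph gate held 5.86% (3.96% to 8.31%) and 9.24% (5.95% to 13.5%) of cells. After thinning it held 0.404% and 0.402%, and with 3 markers 1.21% and 0.803%, so the order was not kept. Its cells were deep, with medians of 39532 and 15174 UMIs. In humWT they carried Prox1 at 19.8 and Mmrn1 at 26.6 CPM, but also Emcn at 772 and Plvap at 379. A lymphatic identity of these cells was therefore not established. Prox1, the factor of lymphatic identity, had 94 and 53 UMIs in humWT and humdG, Mmrn1 had 98 and 50 and Lyve1 had 16 and 3. Of the 6 lymph vessel genes tested, 5 had a ratio above 1, against 6171 of all 13648 genes, and the median log2 ratio was 0.39. The other one, the podoplanin gene Pdpn, was past 2-fold lower in humdG, with 189 and 20 UMIs, a ratio of 0.266 (0.159 to 0.422) against 0.515 in the other cells, where its level was 67.2 and 34.6 CPM against 22.9 and 6.09 in endothelial cells. Its log2 ratio was -1.64 in Xist cells but -0.03 in Y cells, and -1.21 without cells with 1% mesenchyme or 5% haemoglobin UMIs.

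Several genes of the mature blood-retina barrier were nearly undetected. The lipid transporter gene Mfsd2a had 8 UMIs in all humWT and 5 in all humdG endothelial cells, and the organic anion transporter gene Slco1c1 had 12 and 9. Slc38a5, an amino acid transporter gene, was the member past 2-fold, with 3 and 23 UMIs and a ratio of 19.2 (5.81 to 100.1), and all 23 humdG UMIs were in 1 cell. The median log2 ratio of the 12 barrier genes tested was 0.47, but -0.16 in Xist and -0.29 in Y cells. The drug efflux genes were present, Abcg2 at 194 and 180.5 CPM against 31.9 and 29.4 in the other cells and Abcb1a at 30.1 and 36.2 against 0.988 and 0.431. The glucose transporter gene Slc2a1 stood at 157 and 203 CPM against 125 and 225, and Itm2a, a membrane protein gene, at 223 and 137, a ratio of 0.612 (0.551 to 0.679) against 0.687 in the other cells. The barrier gate held 15.8% and 16.9% of cells, and 0.404% and 0.803% after thinning. The norrin receptor gene Fzd4 and its partners Tspan12 and Lrp5, through which norrin drives the retinal barrier, stood at 88.3 and 87.3, at 78.6 and 78.8 and at 66.1 and 68.5 CPM, with ratios of 0.990, 1.00 and 1.04. The norrin gene Ndp had 4 and 3 UMIs. Lef1, a nuclear factor of Wnt signalling, stood at 16 and 23.7 CPM, a ratio of 1.48 (1.11 to 1.98), and none of the 12 norrin and Wnt genes tested was past 2-fold.

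The fenestrated and caveolar genes, Plvap aside, were abundant, with sums of 3117 CPM in humWT and 3125 in humdG over 11 genes, against 381 and 185 in the other cells. Cav1, the main protein of caveolae, stood at 567 and 504 CPM, and the coat genes Cavin1 and Cavin3 at 187 and 135 and at 389 and 317. Gpihbp1, the capillary anchor of lipoprotein lipase, stood at 232 and 343 CPM, a ratio of 1.48 (1.37 to 1.59), and Igfbp3 at 645 and 871, a ratio of 1.35 (1.29 to 1.41) against 0.374 in the other cells. These 2 had the highest ratios of the list, and the other 9 ranged from 0.719 to 1.052. The median log2 ratio was -0.30 in endothelial cells and -0.81 for the same genes in the other cells.

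Cell-cycle genes were somewhat lower in endothelial than in other cells, with a median ratio over the 12 genes of 0.895 in humWT and 0.781 in humdG. Mki67, a marker of dividing cells, stood at 149.5 and 157 CPM against 151 and 188 in the other cells, and the topoisomerase gene Top2a at 196 and 218 against 287 and 398. The cycling gate (Mki67, Top2a, Cdk1, Ccnb1, Birc5, Cenpf) held 57.0% and 61.0% of endothelial cells, or 13.7% (10.8% to 17.1%) and 15.7% (11.4% to 20.8%) after thinning. In red cells the thinned shares were 1.16% and 4.67%, and the unthinned ones 23.1% and 44%, and the part of free RNA in this gate was not tested. All 12 cycling genes had a humdG to humWT ratio above 1, as had 6171 of all 13648 genes tested. None of the 12 was past 2-fold, and their median log2 ratio was 0.21 against 0.41 in the other cells. In the Y cells the median was -0.12.

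Between genotypes, the genes that define endothelium lay close together in the cells that the rule chose. The rule set the same marker floor in both libraries, so cells with low levels of endothelial genes could fall outside it. How far this set the closeness was not tested. Of 13648 genes, 262 (1.92%) were at least 2-fold higher and 655 (4.80%) at least 2-fold lower in humdG endothelial cells, 6.72% in all. None of the 20 pan-endothelial genes was past 2-fold, with a median log2 ratio of 0.06 and a range from -0.21 (Ptprb, a receptor phosphatase gene) to 0.41 (Flt1). The same 20 genes had a median of -0.69 in the other cells. Of the 728 genes enriched in endothelial cells, 28 (3.85%) were past 2-fold, 6 higher and 22 lower, and of the 10044 genes with at least 100 UMIs, 289 (2.88%) were. The median log2 ratio was -0.03 over the 728 genes and -0.03 over all genes tested, on values scaled to the same total in each library.

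**Figure D4:**
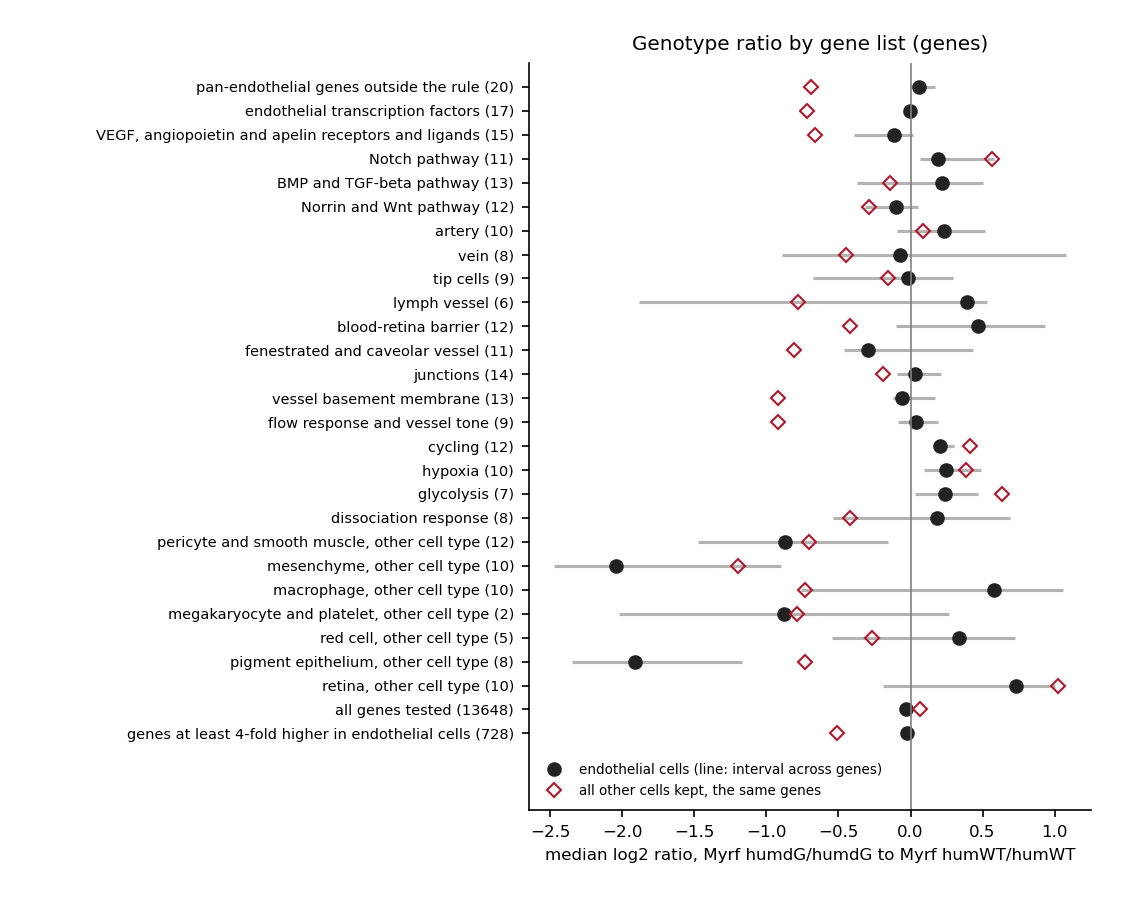
Median log2 ratio of humdG to humWT for each gene list (number of genes tested in parentheses) in endothelial cells (black circles, with an order-statistic interval across genes as a grey line) and for the same genes in all other cells kept (open red diamonds). The pan-endothelial list lies at 0.06 and the mesenchyme and pigment epithelium lists at -2.04 and -1.91 in endothelial cells.

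Among the VEGF, angiopoietin and apelin genes, 0 of 15 tested were past 2-fold, 4 had a ratio above 1 and 11 below. Of all 13648 genes tested, 6171 had a ratio above 1 and 7477 below. Flt1 had a ratio of 1.33 (1.28 to 1.37) against 0.631 in the other cells, and Flt4, the VEGF-C receptor gene, stood at 67.2 and 89.8 CPM, a ratio of 1.34 (1.16 to 1.54). The co-receptor gene Nrp1 stood at 525 and 532 CPM and Nrp2 at 328 and 268, a ratio of 0.816 (0.756 to 0.881). The receptor genes of this list thus lay on both sides of 1. The angiopoietin receptor gene Tek stood at 292 and 255 CPM, its relative Tie1 at 289 and 283, and the apelin receptor gene Aplnr at 222 and 186, a ratio of 0.837 (0.763 to 0.918). The ligand gene Pdgfb, which recruits pericytes, stood at 163 and 150.3 CPM.

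All 11 Notch pathway genes had a ratio above 1, compared with 6171 of all 13648 genes tested. Their median log2 ratio was 0.19, and 0 were past 2-fold. Hes1, a Notch target gene, stood at 261 and 448 CPM, a ratio of 1.71 (1.60 to 1.83), and Hey1, another target, at 26.7 and 38.0, a ratio of 1.43 (1.14 to 1.78). The receptor gene Notch1 stood at 161 and 184 CPM and Dll4 at 69.4 and 84.9, a ratio of 1.22 (1.06 to 1.42). In the other cells Hes1 and Dll4 had ratios of 1.84 and 2.25 and the list a median of 0.56, so the other cells of the eye had the larger ratios. The direction was not the same in Xist and Y cells, as the list median was -0.08 in Xist cells (118 humWT and 75 humdG) and 0.06 in Y cells (185 and 66).

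In the BMP and TGF-beta list 10 of 13 genes had a ratio above 1, against 6171 of all 13648 genes tested. None of the 13 was past 2-fold, and the median log2 ratio was 0.22, with an interval across genes from -0.37 to 0.50. Smad6 stood at 52.7 and 86.1 CPM, a ratio of 1.63 (1.401 to 1.90) against 1.000 in the other cells. Smad7, a related inhibitor, stood at 229 and 327 CPM, a ratio of 1.43 (1.32 to 1.54) against 1.39. The target genes Id1 and Id3 stood at 412 and 555 and at 789.8 and 980.0 CPM, with ratios of 1.35 and 1.24 against 2.02 and 1.403. The signal carrier gene Smad1 had a ratio of 0.683 (0.598 to 0.778) and the receptor gene Tgfbr2 of 0.771 (0.707 to 0.840). The list median was 0.13 in Xist cells and 0.21 in Y cells.

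Most junction, matrix and flow genes had genotype ratios close to 1. The catenin gene Ctnnb1 stood at 591 and 581 CPM and the scaffold gene Tjp1 at 280.4 and 285. Cgnl1, a cingulin relative, was the lowest of the 14 junction genes tested, at 107 and 67.3 CPM, a ratio of 0.627 (0.538 to 0.727) against 0.458 in the other cells. The 13 basement membrane genes summed to 8696 CPM in humWT and 8538 in humdG. The collagen IV genes Col4a1 and Col4a2 stood at 2000.0 and 1916 and at 1137 and 1068 CPM, Sparc, a collagen-binding protein gene, at 2044 and 1877 and its relative Sparcl1 at 1061 and 1195. The median log2 ratio of these 13 genes was -0.06 in endothelial cells against -0.92 in the other cells, and it was 0.04 against -0.92 for the 9 genes of flow response and tone. Of those, the nitric oxide synthase gene Nos3 stood at 74.8 and 79.4 CPM and Ace at 34.1 and 44.4.

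Among artery genes the connexin gene Gja4 stood at 127 and 119 CPM and Gja5 at 29.6 and 42.3, a ratio of 1.43 (1.153 to 1.77), with 48 of the 139 humdG UMIs of Gja5 in 1 cell. The ephrin gene Efnb2 stood at 188 and 206 CPM and the guidance receptor gene Unc5b at 141 and 166. None of the 10 artery genes was past 2-fold, and their median log2 ratio was 0.23, but -0.28 in Xist and 0.01 in Y cells. Among vein genes the von Willebrand factor gene Vwf stood at 331 and 428 CPM, a ratio of 1.29 (1.21 to 1.38), and the vein factor Nr2f2 at 91.7 and 78.2. Flrt2, an adhesion molecule gene, stood at 146 and 78.5 CPM, a ratio of 0.537 (0.468 to 0.615) against 0.678 in the other cells. The 1 vein gene past 2-fold, Selp, rested on 12 and 10 UMIs and had a ratio of 2.09 (0.810 to 5.28), an interval that includes 1.

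No hypoxia or glycolysis gene tested was past 2-fold between the genotypes in endothelial cells. Of 10 hypoxia genes 9 had a ratio above 1, led by Ankrd37 at 98.1 and 181 CPM, a ratio of 1.85 (1.66 to 2.05) against 2.12 in the other cells. All 7 glycolysis genes had a ratio above 1, with the lactate dehydrogenase gene Ldha at 343 and 474 CPM, a ratio of 1.38 against 1.68. Among all 13648 genes tested, 6171 had a ratio above 1. The list medians were 0.25 and 0.24 in endothelial cells and 0.39 and 0.64 in the other cells. The hypoxia median was -0.11 in Xist cells and 0.42 in Y cells, so its sign differed between these sets of cells. The glycolysis median was 0.03 in Xist cells and 0.32 in Y cells. The 8 early response genes tested, which dissociation can induce, had a median of 0.18 against -0.42 in the other cells.

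Kcne3, the gene of a potassium channel beta subunit (chr7:100176502-100184869), had the highest genotype ratio among enriched genes with at least 100 UMIs. It had 143 and 266 UMIs in humWT and humdG, or 17.3 and 81.0 CPM, a ratio of 4.67 (3.80 to 5.76), which used the same contrast that chose it. In the other cells it stood at 0.854 and 0.614 CPM, a ratio of 0.719. It was carried by 62 and 45 cells, 12.5 and 18.1 percent, and the richest humWT cell held 12 UMIs and the richest humdG cell 56. Its log2 ratio was 2.22 over all cells, 2.15 in Xist cells, 2.58 in Y cells and 1.81 when each cell was given the same weight. The part of the richest cells in these values was not tested.

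The other 9 enriched genes with the highest ratios were less far apart. Cd300lg, the gene of the endothelial receptor nepmucin, stood at 21.9 and 43.8 CPM, a ratio of 2.00 (1.59 to 2.50) against 0.921 in the other cells. Apold1, a gene of activated endothelium, had a ratio of 1.83 (1.51 to 2.20) against 0.878, and Ackr2 of 1.69 (1.29 to 2.20) against 0.803. Gpr183, an oxysterol receptor gene, had a ratio of 1.65 (1.33 to 2.04) and the phosphodiesterase gene Pde4b of 1.59 (1.47 to 1.73). Ankrd37, given above, Mmp25, Fam102a and 9930012K11Rik completed the group.

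The 10 enriched genes with the lowest ratios had ratios below 1 in the other cells as well. Gm4070 had 117 and 12 UMIs and a ratio of 0.257 (0.129 to 0.467) against 0.303 in the other cells. Gbp9, a guanylate-binding protein gene, stood at 20.9 and 7 CPM, a ratio of 0.336 (0.207 to 0.520) against 0.533. Ly6a, which encodes the surface protein Sca-1, stood at 46.3 and 20.4 CPM, a ratio of 0.440 (0.334 to 0.572) against 0.362. These 3 thus differed in the same direction in endothelial and other cells. Without cells with 1% mesenchyme or 5% haemoglobin UMIs the log2 ratio of Ly6a was -0.71 in place of -1.17, no longer past 2-fold, and in Y cells it was -0.39. Oasl2, of the oligoadenylate synthetase family, stood at 46.9 and 23.1 CPM, a ratio of 0.493 (0.380 to 0.632) against 0.407. Irf7, an interferon regulatory factor gene, stood at 20.4 and 10.3 CPM, a ratio of 0.508 (0.341 to 0.738) against 0.518. The log2 ratio was -2.91 in Xist and -0.71 in Y cells for Oasl2 and -3.09 and -0.27 for Irf7. These values have no intervals, so whether the size differed between the sets is uncertain. Phf11d, D830026I12Rik, 1700016K05Rik, 4931422A03Rik and Gm13056 had ratios from 0.438 to 0.511.

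**Figure D5:**
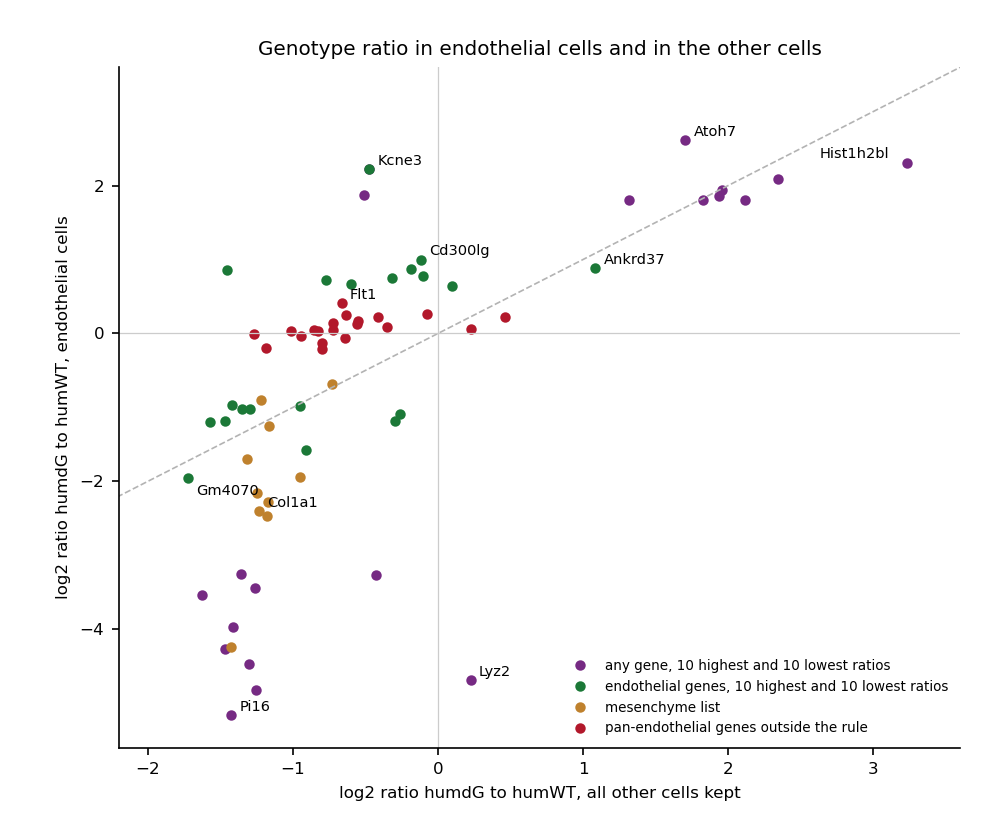
Log2 ratio of humdG to humWT in endothelial cells (vertical) against that in all other cells kept (horizontal) for the genes with the 10 highest and 10 lowest ratios among enriched genes (green) and among all genes with at least 100 UMIs (purple), the mesenchyme list (brown) and the 20 pan-endothelial genes (red), with equal ratios on the dashed line. Kcne3 stands above 0 in endothelial cells and below 0 in the other cells, and Pi16 is the lowest gene.

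Genes of other cell types were followed in the same cells. The collagen I gene Col1a1, a product of mesenchyme, stood at 1265 and 240.1 CPM in humWT and humdG endothelial cells, a ratio of 0.190 (0.176 to 0.204), at 651 and 352 in red cells and at 5585 and 2375 in the other cells. It had a UMI in 98.8 and 72.3 percent of endothelial and 97.7 and 74.0 percent of red cells, so nearly the same share of red cells as of endothelial cells carried it. All 10 mesenchyme genes had a ratio below 1, against 7477 of all 13648 genes tested. Of the 10, 8 were past 2-fold, and their median log2 ratio was -2.04. Their summed level was 3861 and 884 CPM in endothelial cells, 2066 and 953 in red cells and 15831 and 6987 in the other cells. Red cell genes held 622981 and 644037 CPM in red cells. The red cell levels of other genes are therefore understated beside those of endothelial cells, and which of the 2 sets was richer cannot be read from these sums. The median was -2.03 in Xist and -0.45 in Y cells, and -1.26 without cells in which the mesenchyme genes held 1% of UMIs or haemoglobin 5%. The part of free RNA and of mixed cells in these values was not tested.

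Of all genes with at least 100 UMIs, Pi16, a fibroblast gene, had the lowest ratio, with 1260 and 14 UMIs in 50 and 11 cells, a ratio of 0.0279 (0.0152 to 0.0470) against 0.372 in the other cells. Mfap5, a microfibril gene, had 0.0452 (0.0297 to 0.0660) against 0.404. Col5a3, Igfbp6, Cdh3, Matn4, Pamr1, Ecrg4 and Clec3b had ratios from 0.0355 to 0.105. These low genes were lower in the other cells too, with ratios there from 0.323 to 0.743. The direction of 4 of them was not kept in Y cells, where the log2 ratio was 0.52 for Pi16, 0.43 for Mfap5, 1.26 for Col5a3 and 0.16 for Clec3b. In 21 humWT and 2 humdG endothelial cells the mesenchyme genes held at least 1% of UMIs. Without these cells and those with 5% haemoglobin, the log2 ratio with 0.5 UMIs added to each count moved from -5.11 to -1.08 for Pi16, from -4.44 to -1.30 for Mfap5, from -4.60 to -1.79 for Col5a3 and from -3.18 to -0.09 for Clec3b. It was then -0.54 for Igfbp6, -1.90 for Ecrg4, -2.10 for Pamr1, -3.196 for Matn4 and -6.42 for Cdh3, so Igfbp6 and Clec3b were no longer past 2-fold. With all cells kept and each given the same weight, it was -2.48 for Pi16, -2.31 for Mfap5, -3.70 for Col5a3 and -1.99 for Clec3b. For Igfbp6, Ecrg4, Pamr1, Matn4 and Cdh3 it was -1.06, -1.75, -2.97, -4.41 and -4.14. Lyz2, the lysozyme gene of macrophages, was the remaining one and had 246 of its 259 humWT UMIs in 1 cell.

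The 8 pigment epithelium genes were all past 2-fold lower, with sums of 311 and 81.0 CPM in endothelial cells, 253 and 159 in red cells and 1357 and 836 in the other cells. The red cell values in this paragraph are again lowered by haemoglobin. Their median log2 ratio was -1.91, with -3.35 in Xist cells and -0.86 in Y cells, where Tyrp1, a melanin enzyme gene, was at 0.50. When each cell was given the same weight the median was -0.99. Pmel, a melanosome gene, stood at 124 and 31.3 CPM in endothelial and 95.3 and 78.2 in red cells, and 47.5% of its humWT UMIs were in 1 cell. Myrf itself had 60 UMIs in 40 humWT cells and 4 in 3 humdG cells, in 8.08 and 1.20 percent of endothelial and 1.16 and 2.67 percent of red cells. Of the 60 humWT UMIs, 11 were in 1 cell. The study reports Myrf expression in its pigment epithelium cluster alone. Whether endothelial cells make Myrf or carry free RNA of it was not tested. Reads of the human exon need not map to the mouse genome in either genotype. Of 12 pericyte and smooth muscle genes, 6 were past 2-fold lower, among them Rgs5 at 25.7 and 9.13 CPM. The list median was -0.87, with -1.69 in Xist cells, -0.11 in Y cells and -0.34 when each cell was given the same weight. Higd1b had 49 UMIs in 7 humWT cells and 0 in humdG.

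The highest ratios of all genes included a retinal gene and several histone genes. Atoh7, the factor of retinal ganglion cell birth, stood at 8.24 and 50.5 CPM, a ratio of 6.13 (4.59 to 8.25) against 3.26 in the other cells, with 67 of its 166 humdG UMIs in 1 cell. Hist1h2bl, Hist2h2bb, Hist1h2bm, Hist1h3f, Hist1h3e and Hist1h4d had ratios from 3.48 to 4.96 in endothelial and from 3.55 to 9.39 in the other cells. Ctss, a macrophage protease gene, had 74 of its 77 humdG UMIs in 1 cell, and Kcne3 and Gm29266 made up the 10. The 10 retina genes had a median log2 ratio of 0.73 against 1.02 in the other cells, and 1 was past 2-fold.

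Genes of blood cells were also found in the endothelial cells. The 10 macrophage genes summed to 107 and 129 CPM, against 14058 and 8914 in macrophages, and their most abundant members were Fcer1g in humWT, at 22.3 and 13.1 CPM in humWT and humdG, and C1qa in humdG, at 11.4 and 23.7. Of these genes 2 were past 2-fold higher and 1 lower, and the list median was 4.30 in Xist but -0.99 in Y cells. Of the 6 platelet genes, Ppbp and Gp9 had no UMI, and Pf4, which summed with the rest of the list to 7906 and 3878 CPM in macrophages, stood at 58.7 and 14.3 CPM. Of its 484 humWT UMIs 3 cells held 82, 74 and 60, and its log2 ratio moved from -2.02 to -0.73 without cells with 1% mesenchyme or 5% haemoglobin UMIs. For Pf4 it was 0.35 in Xist cells and -0.73 in Y cells, so the direction was not kept in Xist cells. The red cell genes summed to 3504 and 4607 CPM, against 622981 and 644037 in red cells and 13863 and 11793 in the other cells. Their median log2 ratio was 2.80 in Xist cells and -1.87 in Y cells.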

How the data were processed

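The authors' files hold 10x single-cell libraries of the E17.5 mouse eye cup, 1 for each genotype (Myrf humWT/humWT and Myrf humdG/humdG), as deposited matrices of raw UMI counts per gene and barcode, made per the labels with Cell Ranger 7.1.0 on mm10. The submitters' processing notes also name Seurat 4.1.1. The matrices hold 17421 and 19565 barcodes, more than the number of cells the study states, and no cell annotation was used here.

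Barcodes with more than 500 genes and less than 15% mitochondrial UMIs were kept. Endothelial cells were taken by the 6-gene rule given above, red cells as those with at least 50% haemoglobin UMIs, and macrophages as those with at least 3 of 7 macrophage markers, both outside the rule. Scrublet (in scanpy 1.11.5) marked 1 of 17017 and 0 of 19129 cells, so it did not work here and no doublets were removed, and leaving out the top 5% of its scores was an alternative.

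UMIs were summed over cells as CPM. Ratios of humdG to humWT were given with exact conditional binomial intervals and shares with Clopper-Pearson intervals, both at 95%. A library per genotype allows no test, so counts of genes past 2-fold are descriptions, over genes with at least 20 UMIs, the 6 rule genes and symbols shared by 2 gene IDs left out. List medians used log2 ratios with 0.5 UMIs added. Thinning was to 1000 UMIs per cell. Coordinates are from GENCODE M21 (GRCm38).

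The members, lists and rules were chosen with earlier results of these data known. The text names the rule genes; the 4 members of each list with most UMIs and members past 2-fold whose interval excludes 1; 12 genes outside the lists with the highest excess in endothelial cells and at least 200 UMIs; and, of the genes reaching 100 UMIs, the 10 at each end of the genotype ratio, once for all genes and once for enriched genes. Other list members were named after their values were seen. The comparison of artery-gate and vein-gate cells, the summary per cell and the counts of UMIs in the richest cells were also added after the data had been seen. Alternatives were other filters, marker rules, scalings and minimum counts, the gates with 3 markers, and the Xist and Y cells apart. Log2 ratios and list medians under the alternatives are given without intervals, and the Xist and Y sets hold fewer cells. Scripts were tested on simulated data and run with Python 3.11.15, numpy 2.4.6, scipy 1.17.1, pandas 2.3.3 and matplotlib 3.10.9.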

Additional observations from a re-analysis of the deposited data

How the results depend on the processing

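No paired analysis was possible because each genotype had 1 library and the labels give no replicate numbers. Endothelial cells were fewer in humdG under all alternatives for the rule. The shares in humWT and humdG were 2.36% and 1.03% with 4 of 6 markers, 2.32% and 1.03% with both Cdh5 and Pecam1, 2.16% and 1.09% with markers at 0.2% of UMIs, 1.39% and 0.633% with all 6 markers, and 1.24% and 0.650% (ratio 0.523) with every cell thinned. Without cells with 1% mesenchyme or 5% haemoglobin UMIs the humWT share was 3.46%, the pan-endothelial median log2 ratio -0.016 and the number of genes past 2-fold lower 433. That filter and the rule of all 6 markers, with 161 genes past 2-fold higher, were chosen after seeing the data. Without cells with 3 markers of another class or 5% haemoglobin, which left 9 humWT endothelial cells, the shares were 2% and 1.94% (ratio 0.97), the pan-endothelial median was 0.55 and 1113 genes were past 2-fold higher. With a minimum of 50 UMIs, 125 genes were past 2-fold higher and 394 lower, and with a minimum of 1 UMI, 2112 and 1705. At 8-fold, 382 genes were enriched.

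Gate shares depended on depth and on the number of markers. Thinned to 1000 UMIs, they were 9.49% and 10.8% for artery, 15.8% and 21.3% for vein, 0.202% and 0.402% for tip, 0.404% and 0.402% for lymph, 0.404% and 0.803% for barrier and 13.7% and 15.7% for cycling. With 3 markers they were 26.1% and 25.3%, 53.9% and 51.4%, 2.02% and 0.803%, 1.21% and 0.803%, 3.64% and 4.02%, and 32.1% and 38.6% in the same order. Between genotypes the order of the artery, vein, tip and lymph gates therefore changed under at least 1 of these settings.

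Of the log2 ratios of 171 named genes, 1649 values over the alternatives stayed within the counting interval of the value in the text, 554 moved outside it, and 20, of 16 genes, changed sign where that value was past 2-fold with an interval excluding no change, a definition set after seeing the data. In Y cells these were Pi16 0.52, Mfap5 0.43, Col5a3 1.26, Clec3b 0.16, Dcn 0.56, Pdgfra 0.31, Kcnj8 1.92, Tyrp1 0.50, Mrc1 0.053, C1qa -0.58, Csf1r -1.43, Ctss -4.53 and Slc38a5 -1.07. In Xist cells they were Lyz2 1.73 and Pf4 0.35, and with markers at 0.2% of UMIs Clec3b 0.34. Without cells with markers of another class they were C1qa, Csf1r and Ctss at -3.86 and Gm29266 at -1.36. That setting left 9 humWT and 119 humdG endothelial cells. An identical value for C1qa, Csf1r and Ctss can arise from unequal depth and the 0.5 UMIs added. The values of this setting are therefore not read as changes of level. The causes were not tested.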
